A study of Mus musculus with 4 samples.

Results

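The 50 genes described here encode the machinery that condenses, attaches and separates chromosomes in mitosis. They were taken from a list of symbols, each matched to its entry in the gene tables, with no threshold on measured values, but the list was drawn up with earlier results of these data known. All 50 symbols were found among the 23284 symbols of the tables, and all 50 were among the 10496 genes with a mean of at least 1 FPKM that entered the test. FPKM is the number of sequenced fragments scaled to transcript length and library depth, and so levels can be set side by side between genes.

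RNA was sequenced from 2 sorted populations of BALB/c mouse T cells, CCR7hiCD137lo and CCR7loCD137hi, with 2 libraries of each, numbered 1 and 2. CCR7 is a homing receptor for lymph nodes, and CD137, encoded by Tnfrsf9, is a costimulatory receptor that appears on activated T cells. Both populations were flow sorted from the same kind of culture, in which CD4 T cells of the spleen were driven towards the Th1 helper type with 15 ng/ml IL-2 and 10 ng/ml IL-12. The labels give the culture as 4 days in the description and 5 days in the source name, and they do not say whether the libraries came from separate mice or cultures, so a p-value here measures the spread between these libraries, which may be technical.

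Mitosis is driven by kinases that start chromosome condensation and build the spindle. Kinetochores, the protein plates on the centromeres, bind the spindle's microtubules, and a checkpoint holds the cell until all of them are attached. The anaphase promoting complex then marks securin for destruction, which frees separase to cut the cohesin rings that hold sister chromatids together, and the cytoplasm divides. Activated T cells divide fast, and many of these genes are transcribed mostly in G2 and M phase, when factors that bind at CHR elements and CCAAT boxes of their promoters are known to act.

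The promoters are shown for the 3 genes with the lowest fitted differences and the 2 with differences nearest 0, among genes with a single RefSeq start and no annotated exon in the window. Each is the 250 bases before the RefSeq start on GRCm38.p6 (mm10), 5' to 3' on the gene's strand, and capitals mark matches on either strand to CCAAT (the CCAAT box), to TTTGAA or TTCGAA (the CHR element) and to an E2F-type site, which was searched as GCGGGAA and with the variants GCGCGAA as well as GCGCCAA. Top2a lies at chr11:99024190-99024439 on the minus strand, Spc25 at chr2:69206214-69206463 on the minus strand, Kif11 at chr19:37376132-37376381 on the plus strand, Anln at chr9:22389207-22389456 on the minus strand and Ckap2 at chr8:22185820-22186069 on the minus strand.
Top2a: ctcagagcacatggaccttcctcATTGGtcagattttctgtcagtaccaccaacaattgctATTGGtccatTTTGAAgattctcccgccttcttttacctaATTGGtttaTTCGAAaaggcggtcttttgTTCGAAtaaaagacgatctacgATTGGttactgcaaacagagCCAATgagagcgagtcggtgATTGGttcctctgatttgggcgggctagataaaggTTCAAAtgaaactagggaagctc
Spc25: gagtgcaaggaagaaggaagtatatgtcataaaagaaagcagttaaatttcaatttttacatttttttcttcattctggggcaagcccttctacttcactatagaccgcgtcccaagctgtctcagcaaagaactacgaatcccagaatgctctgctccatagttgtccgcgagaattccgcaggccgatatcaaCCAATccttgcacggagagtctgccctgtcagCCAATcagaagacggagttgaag
Kif11: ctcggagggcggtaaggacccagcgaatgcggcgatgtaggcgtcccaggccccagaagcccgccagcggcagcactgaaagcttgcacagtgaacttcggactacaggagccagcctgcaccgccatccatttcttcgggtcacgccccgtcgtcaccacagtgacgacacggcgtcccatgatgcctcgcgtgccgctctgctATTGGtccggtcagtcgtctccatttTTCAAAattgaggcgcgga
Anln: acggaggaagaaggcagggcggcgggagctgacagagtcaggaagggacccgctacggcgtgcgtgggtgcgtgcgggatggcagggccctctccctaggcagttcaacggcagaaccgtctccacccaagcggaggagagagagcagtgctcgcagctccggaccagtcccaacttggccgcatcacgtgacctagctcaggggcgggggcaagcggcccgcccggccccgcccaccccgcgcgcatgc
Ckap2: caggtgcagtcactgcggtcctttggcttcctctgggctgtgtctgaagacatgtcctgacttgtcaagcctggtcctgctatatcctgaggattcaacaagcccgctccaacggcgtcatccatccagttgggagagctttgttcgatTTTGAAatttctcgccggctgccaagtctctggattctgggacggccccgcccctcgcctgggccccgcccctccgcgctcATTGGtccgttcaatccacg
The Top2a window held 6 CCAAT and 4 CHR matches, Spc25 held 2 CCAAT matches, Kif11 and Ckap2 held 1 of each, and Anln held none of the 3 motifs.

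RefSeq promoters were matched for 43 of the 50 genes, with 46 start windows in all. Tpx2, Kif20a, Spc24, Smc4, Cdca2, Incenp and Aurkb had no entry. CCAAT stood in 33 of the 46 windows (71.7%), against 33.8% of 32851 mouse promoter windows of the same length and 35.7% of the windows of tested genes. The CHR letters stood in 21 windows (45.7%), against 17.1% of all windows and 12.2% of those of tested genes, and both motifs together in 18 (39.1%), against 6.02% and 4.73%. The E2F-type letters were in 5 windows (10.9%), 1 each for Kif15, Ncapd2, Mki67, Ect2 and Kif18a, against 6.69% of all windows and 12.7% of those of tested genes. A match on GCGCCAA can share bases with one on CCAAT. These are counts of letters in the window before the start. Sites outside the window were not searched, and the counts show neither binding nor use of a site. Within the set, the median log2 difference between the populations was -0.28 for 19 genes with the CHR letters and -0.22 for 24 without, and -0.23 for 30 genes with CCAAT and -0.30 for 13 without. These differences between motif classes were not tested.

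The depth of the libraries, estimated from the steps between low FPKM values, was near 20600000 and 13000000 fragments in replicates 1 and 2 of CCR7hiCD137lo and near 11600000 and 6310000 in those of CCR7loCD137hi. At 10 FPKM a transcript of 3 kb would then have 618, 390, 349 and 189 fragments, with a counting error of 4.02, 5.07, 5.35 and 7.27%, and of the 50 genes only Kif18a had a mean under that level. The sort labels held for the RNA of the sorted proteins, with Ccr7 at 93.4 and 118 FPKM in CCR7hiCD137lo and 39.6 and 38.2 in CCR7loCD137hi, and Tnfrsf9 at 0.961 and 6.25 against 158 and 184. All 9 pan T cell markers found were above 0 in every library, and their summed FPKM ran from 1919 to 2193. Summed B cell markers (7 genes) stood at 0.0917 and 0.145 FPKM in CCR7hiCD137lo, where 5 of them were at 0, and at 5.30 and 0.571 in CCR7loCD137hi. Summed CD8 T and NK cell markers (7 genes) stood at 12.7 and 23.7 against 49.8 and 39.5 FPKM, most of it Eomes, and Cd8a was at 0 and 0.0265 against 3.68 and 0.218. Myeloid and dendritic markers summed to 1.57 and 0.794 against 2.70 and 3.99 FPKM, and erythroid and platelet markers to 0.415 and 0.651 against 1.33 and 2.53. Their part in the differences below was not tested.

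The comparison asked whether RNA of the mitotic machinery differs between the CCR7hiCD137lo and CCR7loCD137hi populations. RNA of nearly all of the 50 genes was somewhat lower in CCR7loCD137hi, most of all Top2a, Spc25 and Kif11, and no single gene passed the test adjusted over all genes. The median gene of the set measured 49.4 and 51.4 FPKM in replicates 1 and 2 of CCR7hiCD137lo, against 37.7 and 39.8 FPKM in replicates 1 and 2 of CCR7loCD137hi. Together the 50 genes held 0.673 and 0.695% of all FPKM in CCR7hiCD137lo and 0.540 and 0.553% in CCR7loCD137hi. In such bulk samples, fewer dividing cells and less RNA per dividing cell cannot be told apart.

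The fitted log2 difference, CCR7loCD137hi minus CCR7hiCD137lo on log2(FPKM + 1), was below 0 for 49 of the 50 genes, where 52.1% of all tested genes were below 0. Its median over the set was -0.27 against -0.01 over all tested genes, and its middle 50% ran from -0.33 to -0.19. On the linear scale, the mean of CCR7loCD137hi differed from that of CCR7hiCD137lo by a median of -17.5%, with a range from -39.8 to 3.13%. Both CCR7loCD137hi libraries lay below both CCR7hiCD137lo libraries for 37 of the 50 genes (74%), against 21.5% of all genes tested. No gene of the set had both above, a pattern held by 16.6% of all genes.

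With limma, a linear model with moderated variances, 0 of the 50 genes were called lower and 0 higher at a Benjamini-Hochberg adjusted p of 0.05 over the 10496 genes, where 0.00953% of all genes (1) were called lower and 0.0476% (5) higher. In this test Ccr7 and Tnfrsf9, the genes of the sorted proteins, were not called either. Their log2 differences were -1.41 (adjusted p 0.213) and 5.51 (adjusted p 0.214). The lack of a call is therefore no evidence that a gene did not differ. Rescaling without short RNA genes gave 0 lower and 3 higher over all genes, and quantile normalization 0 lower and 2 higher. At an unadjusted p of 0.05, 11 of the 50 genes were lower (22.0%), against 3.49% of all genes, and 0 were higher, against 4.64%. The 11 genes were Top2a, Spc25, Kif11, Nuf2, Mad2l1, Kif15, Smc2, Ncapd2, Smc4, Ttk and Tpx2. This count was 1 without CCR7hiCD137lo replicate 1, against 1% of all genes in the same fit, and 2 without CCR7hiCD137lo replicate 2, against 1.18%. It was 4 without CCR7loCD137hi replicate 1, against 3.39%, and 8 without CCR7loCD137hi replicate 2, against 2.5%. In these fits a lone library is assumed to vary like the other group.

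**Figure D1:**
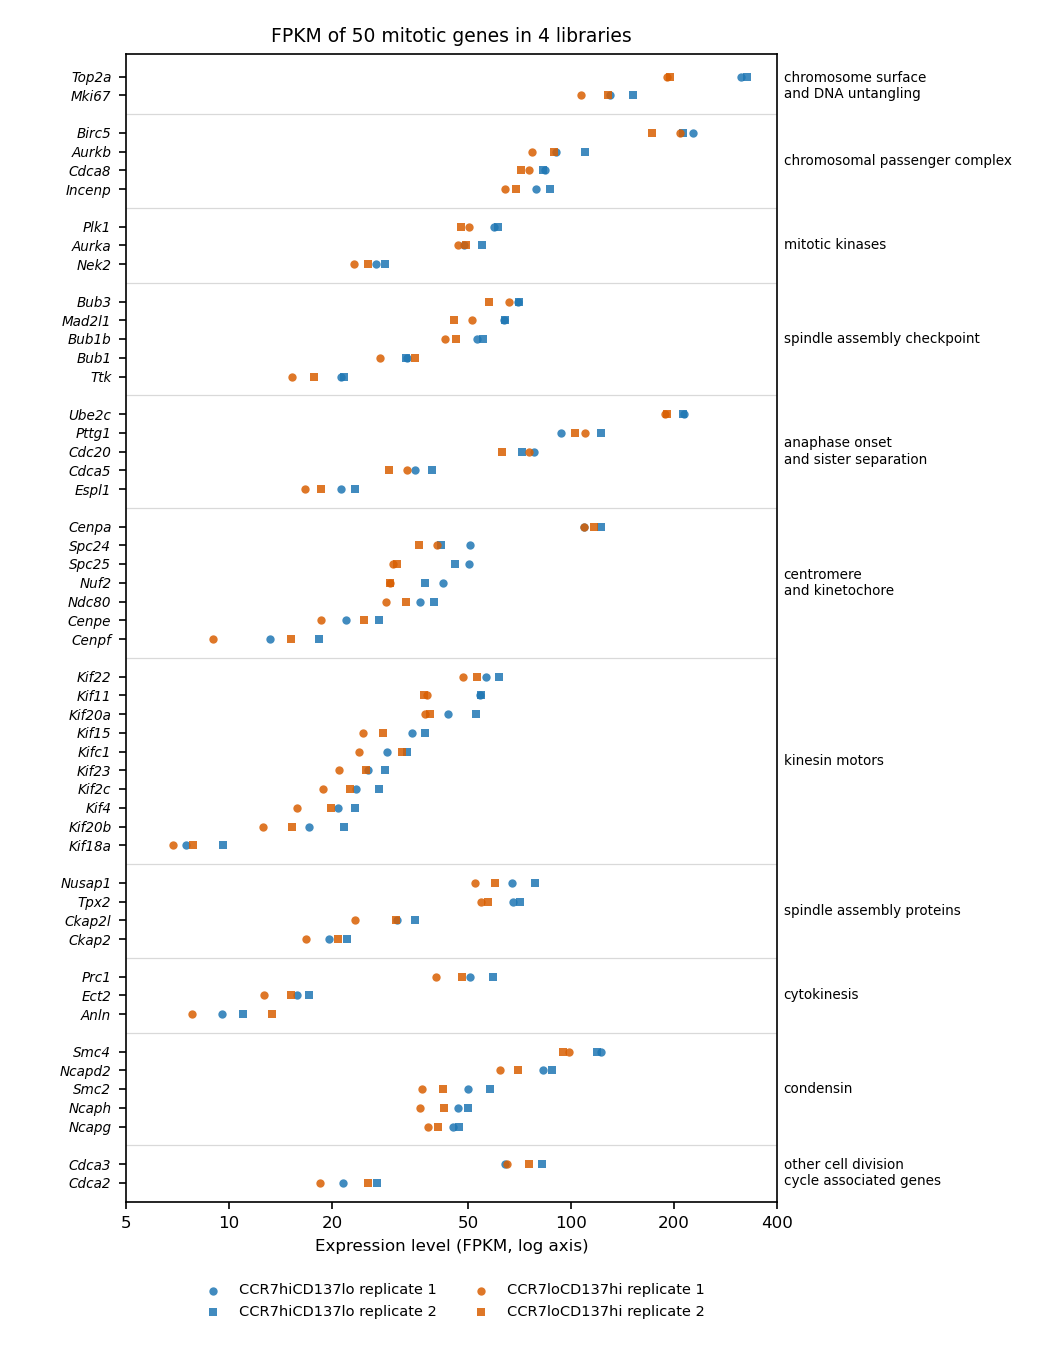
FPKM of the 50 genes in each of the 4 libraries on a log axis, grouped by the genes' role in mitosis, with 1 point per library and a different colour for each population. The CCR7loCD137hi points lie to the left of the CCR7hiCD137lo points without overlap for 37 genes, and mean levels run from 7.95 FPKM for Kif18a to 256 FPKM for Top2a.

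**Figure D2:**
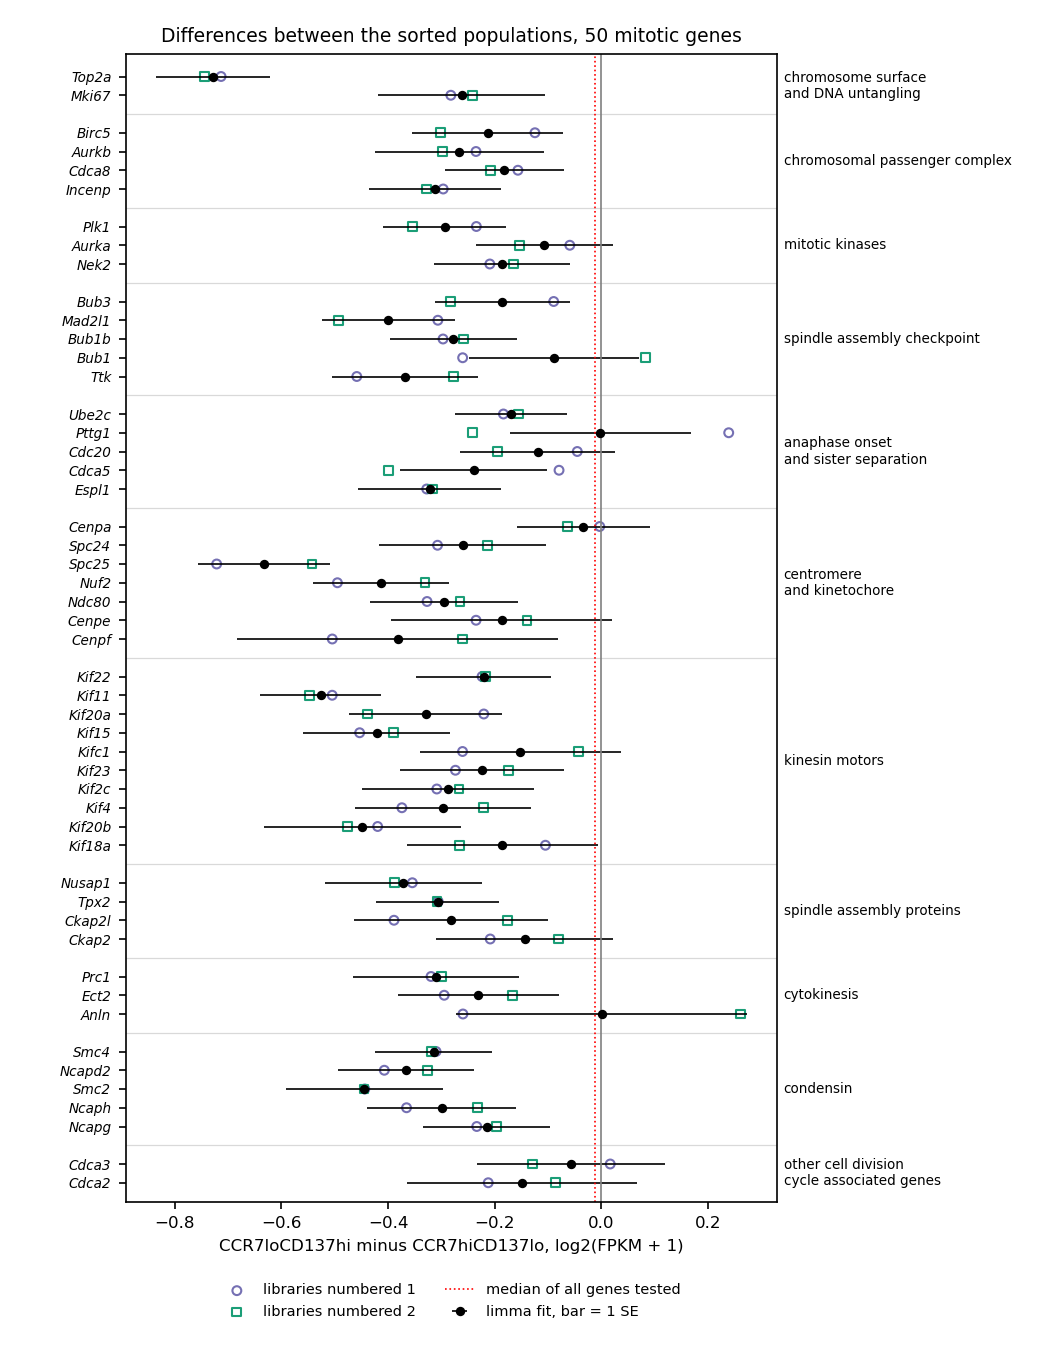
Fitted log2 difference (CCR7loCD137hi minus CCR7hiCD137lo, log2(FPKM + 1) scale) of each of the 50 genes as a filled point with 1 standard error as the bar, ordered by role, and as open symbols the differences in the libraries numbered 1 and in those numbered 2. A dotted line marks the median of all tested genes, and the filled points run from -0.73 for Top2a to 0.00087 for Anln.

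Top2a, topoisomerase II alpha, untangles sister chromatids, and its gene spans chr11:98992947-99024189 on mm10. It measured 313 and 327 FPKM in replicates 1 and 2 of CCR7hiCD137lo, against 191 and 195 FPKM in replicates 1 and 2 of CCR7loCD137hi. The replicates lay close together and the populations far apart, with means of 320.1 ± 10.0 and 193 ± 3.07 FPKM (SD, n = 2 libraries each), a difference of -39.8%. The log2 difference was -0.73 (SE 0.107), with limma's adjusted p of 0.296 and an unadjusted p of 0.0015. Mki67, which encodes the Ki-67 protein that coats mitotic chromosomes, stood at 130.1 and 152 FPKM in CCR7hiCD137lo and 107 and 128 FPKM in CCR7loCD137hi. These groups only just missed each other, and the log2 difference was -0.26 (SE 0.156, adjusted p 0.742 in limma).

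Condensin, the ring complex that compacts chromosomes, was lower in CCR7loCD137hi in all 5 of its listed subunits, with a median log2 difference of -0.31. All 5 were lower without overlap, against 21.5% of all genes. The core ATPase Smc4 stood at 122 and 119 FPKM in CCR7hiCD137lo and 98.5 and 95 FPKM in CCR7loCD137hi (log2 difference -0.31, SE 0.110, adjusted p 0.609). Its partner Smc2 was at 50.1 and 57.8 against 36.6 and 42.2 FPKM, with a log2 difference of -0.44 (SE 0.147, adjusted p 0.578). The regulatory subunit Ncapd2 was at 82.6 and 88.2 against 62.0 and 70.1 FPKM, with a log2 difference of -0.37 (SE 0.128, adjusted p 0.608). All 3 were lower at an unadjusted p of 0.05 in limma, where 3.49% of all genes were, and none was past the adjusted threshold. The other subunits, Ncaph and Ncapg, had log2 differences of -0.30 and -0.22.

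Of the 7 kinetochore genes, 4 were lower in CCR7loCD137hi without overlap, against 21.5% of all genes. These 4 were Ndc80, Nuf2, Spc24 and Spc25, which together form the Ndc80 complex that grips microtubules. Singling out that complex was done after the values were seen. Spc25 (chr2:69193895-69206190) stood at 50.4 and 45.7 FPKM in CCR7hiCD137lo, against 30.2 and 31.0 FPKM in CCR7loCD137hi. Both values of CCR7loCD137hi were well below both of CCR7hiCD137lo, a difference of means of -36.3%, and the log2 difference was -0.63 (SE 0.124, unadjusted p 0.0049, adjusted p 0.378 in limma). Spc24 stood at 50.5 and 41.7 against 40.6 and 35.8 FPKM, nearly touching, with a log2 difference of -0.26 (SE 0.156, adjusted p 0.742). Nuf2 was at 42.1 and 37.4 against 29.6 and 29.5 FPKM (log2 difference -0.41) and Ndc80 at 36.3 and 39.8 against 28.7 and 33.0 FPKM (log2 difference -0.30). Stretches of 303 and 202 bases of Ndc80 are nearly identical to parts of 2 other annotated genes, so some of its fragments may be split among them.

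Cenpa, the histone variant that marks the centromere, was the highest kinetochore gene and differed least in that role. It stood at 109 and 122 FPKM in CCR7hiCD137lo, against 109 and 117 FPKM in CCR7loCD137hi. The populations overlapped, and the log2 difference was -0.03 (SE 0.124, adjusted p 0.963 in limma). The large kinetochore proteins Cenpe, a motor, and Cenpf also overlapped, at 22.0 and 27.5 against 18.5 and 24.9 FPKM and at 13.2 and 18.4 against 9.0 and 15.2 FPKM. For both of them replicate 2 was higher than replicate 1 in each population.

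The spindle checkpoint genes had a median log2 difference of -0.28, and 4 of 5 were lower without overlap, against 21.5% of all genes. Bub3, which docks checkpoint proteins on the kinetochore, stood at 70.0 and 70.4 FPKM in CCR7hiCD137lo and 65.7 and 57.7 FPKM in CCR7loCD137hi (log2 difference -0.19, SE 0.126, adjusted p 0.76 in limma). Mad2l1, which encodes the MAD2 inhibitor of the anaphase promoting complex, was at 63.6 and 64.3 against 51.2 and 45.4 FPKM. It was the lowest of the 5 by log2 difference, at -0.40 (SE 0.125, unadjusted p 0.0277, adjusted p 0.560). A stretch of 454 bases of it is nearly identical to part of an annotated pseudogene. The kinase gene Ttk was at 21.3 and 21.7 against 15.2 and 17.7 FPKM and Bub1b at 53.0 and 55.4 against 42.9 and 46.2 FPKM. Bub1 was the exception, at 33.2 and 33.0 against 27.6 and 35.0 FPKM, with CCR7loCD137hi replicate 2 above both CCR7hiCD137lo libraries.

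The chromosomal passenger complex corrects faulty attachments and later guides cell division. All 4 of its genes were lower without overlap, against 21.5% of all genes, with a median log2 difference of -0.24. None was past an unadjusted p of 0.05 in limma, where 3.49% of all genes were lower. Birc5 (survivin) stood at 227 and 213 FPKM in CCR7hiCD137lo and 208 and 173 FPKM in CCR7loCD137hi, with a log2 difference of -0.21 (SE 0.141, adjusted p 0.76 in limma). Its kinase Aurkb was at 90.6 and 109.8 against 76.9 and 89.1 FPKM (log2 difference -0.27, SE 0.158, adjusted p 0.741). The scaffold Incenp was at 78.9 and 86.7 against 64.0 and 68.9 FPKM (log2 difference -0.31, SE 0.124, adjusted p 0.624). The populations were separated in each, by little for Birc5 and Aurkb, and the fourth gene, Cdca8 (borealin), had a log2 difference of -0.18.

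Among the other mitotic kinases, Plk1, which acts from entry to division, stood at 59.6 and 61.2 FPKM in CCR7hiCD137lo and 50.5 and 47.7 FPKM in CCR7loCD137hi (log2 difference -0.29, SE 0.116, adjusted p 0.624 in limma). Aurka, the kinase of the spindle poles, was at 48.6 and 54.9 against 46.6 and 49.3 FPKM (log2 difference -0.11, SE 0.129, adjusted p 0.866). Plk1 was separated between the populations and Aurka overlapped. Nek2, which splits the centrosomes, was separated, with a log2 difference of -0.19.

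The 10 kinesin motors had a median log2 difference of -0.29, and 8 were lower without overlap, against 21.5% of all genes. Kif11, or Eg5, pushes the spindle poles apart, and its gene spans chr19:37376403-37421859. It stood at 54.2 and 54.6 FPKM in CCR7hiCD137lo, against 37.9 and 37.0 FPKM in CCR7loCD137hi. Replicates were nearly equal and the means differed by -31.1%, with a log2 difference of -0.53 (SE 0.113, unadjusted p 0.0072, adjusted p 0.421 in limma). Kif22, a chromosome arm motor, was the most abundant of the kinesins, at 56.5 and 61.7 against 48.3 and 52.9 FPKM (log2 difference -0.22, SE 0.127, adjusted p 0.731). Kif15, which can stand in for Kif11, was at 34.2 and 37.4 against 24.7 and 28.3 FPKM (log2 difference -0.42). Kif20b (-0.45), Kif20a (-0.33), Kif4 (-0.30), Kif2c (-0.29) and Kif23 (-0.22) were lower without overlap on the same scale, while Kifc1 (-0.15) and Kif18a (-0.19) overlapped.

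Of the 4 further spindle genes, 3 were lower without overlap, against 21.5% of all genes. Nusap1, which bundles microtubules, stood at 67.4 and 78.7 FPKM in CCR7hiCD137lo and 52.5 and 59.9 FPKM in CCR7loCD137hi (log2 difference -0.37, SE 0.147, adjusted p 0.624 in limma). Tpx2, which activates Aurora A on the spindle, was at 67.8 and 70.9 against 54.6 and 57.1 FPKM (log2 difference -0.31, SE 0.115, unadjusted p 0.0486, adjusted p 0.613). Both were lower without overlap. Ckap2l had a log2 difference of -0.28, and Ckap2, whose promoter is shown above, was at 19.6 and 22.1 against 16.8 and 20.9 FPKM, with overlap.

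The genes of anaphase had the median log2 difference nearest 0 among the roles with at least 5 genes, -0.17. Of these 5 genes, 3 were lower without overlap, against 21.5% of all genes. Ube2c, the ubiquitin-conjugating enzyme of the anaphase promoting complex, stood at 213 and 212 FPKM in CCR7hiCD137lo and 188 and 190.2 FPKM in CCR7loCD137hi (log2 difference -0.17, SE 0.106, adjusted p 0.753 in limma). Pttg1, which encodes securin, was at 93.3 and 122 against 110.2 and 103 FPKM. Its CCR7loCD137hi values lay between those of CCR7hiCD137lo, and the log2 difference was -0.0018 (SE 0.170, adjusted p 0.999). Espl1, or separase, which securin inhibits, was at 21.3 and 23.3 against 16.7 and 18.5 FPKM, separated, with a log2 difference of -0.32 (SE 0.135, adjusted p 0.647). The activator Cdc20 (-0.12) overlapped, and the cohesin protector Cdca5, or sororin, did not (-0.24).

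Of the 3 cytokinesis genes, Prc1, which bundles the central spindle, stood at 50.6 and 59.1 FPKM in CCR7hiCD137lo and 40.3 and 47.8 FPKM in CCR7loCD137hi (log2 difference -0.31, SE 0.156, adjusted p 0.712 in limma). Ect2, which activates RhoA at the cleavage site, was at 15.8 and 17.2 against 12.7 and 15.2 FPKM (log2 difference -0.23, SE 0.151, adjusted p 0.76). Both were lower without overlap. Anln, or anillin, the scaffold of the contractile ring, was at 9.53 and 11 against 7.80 and 13.3 FPKM. Its lowest and its highest value were both in CCR7loCD137hi, and it was the gene with a log2 difference above 0, at 0.00087 (SE 0.273, adjusted p 0.999), which turned below 0 with a pseudocount of 0.1 or 0.5 and when rescaled without short RNA genes. The last 2 genes, named for their link to the cell division cycle, overlapped too. Cdca3 was at 64.2 and 82.4 against 64.9 and 75.2 FPKM (log2 difference -0.06, SE 0.176, adjusted p 0.956), and Cdca2 at 21.6 and 27.1 against 18.5 and 25.4 FPKM (log2 difference -0.15, SE 0.215, adjusted p 0.889).

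Because the FPKM of a gene can hold fragments of its neighbours where strand was not used in counting, exon overlap was checked. For 15 of the 50 genes some exon bases were shared with another gene, and for 5 of them the share was at least 10%, all on the opposite strand: Kif20a with Cdc23 (29.3%), Ube2c with Tnnc2 (22.8%), Kif4 with Pdzd11 (15.1%), Ncapg with Lcorl (13.4%) and Prc1 with Rccd1 (11.1%). Stretches of at least 200 bases at 95% identity were found in other annotated genes for 4 genes, Kifc1, Mad2l1, Mki67 and Ndc80. The longest, of 2312 bases, was between Kifc1 and the coding gene Kifc5b, and the others ran over 202 to 454 bases. The values of these genes are uncertain to that extent.

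The comparison was also made within each replicate number. In the libraries numbered 1 the median log2 difference of the 50 genes was -0.29, against 0.01 for all genes, and 48 genes were lower in CCR7loCD137hi. In those numbered 2 it was -0.26, against -0.04 for all genes, and again 48 were lower. The number of genes lower in both was 46 (92.0%), against 35.9% of all genes. The 4 exceptions were Pttg1 and Cdca3, which were higher in CCR7loCD137hi among the libraries numbered 1, and Bub1 and Anln, which were higher in it among those numbered 2. For Top2a the differences were -0.71 and -0.74.

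**Figure D3:**
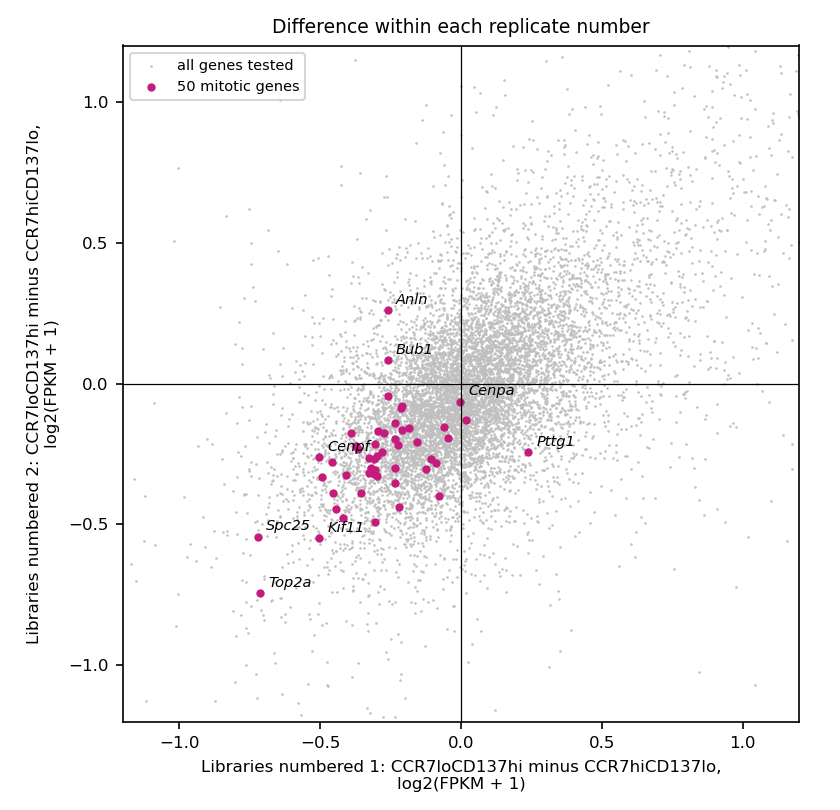
Log2 difference (CCR7loCD137hi minus CCR7hiCD137lo, log2(FPKM + 1) scale) in the libraries numbered 1 (horizontal axis) against those numbered 2 (vertical axis) for all 10496 tested genes in grey and the 50 mitotic genes in colour. Axes run from -1.2 to 1.2 and leave out 407 of all genes, and 46 of the 50 genes lie at the lower left, below 0 on both axes.

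Among the 50 genes, differences between replicates of the same population were not small beside those between populations. For 35 of the 50 genes (70.0%) replicate 2 was higher than replicate 1 in both populations, against 44.7% of all genes. For 6 it was lower in both, against 3091 of the 10496 genes tested. The median log2 difference of replicate 2 from replicate 1 over the 50 genes was 0.13 in CCR7hiCD137lo, against 0.08 over all genes tested. In CCR7loCD137hi it was 0.15, against 0.03 over all genes. For the 50 genes it was 0.06 in CCR7hiCD137lo with median-ratio scaling. Of the kinesins, 9 of 10 were higher in replicate 2 in both populations, and Kif11 was not. Taken pair by pair, the median absolute log2 difference of the 50 genes was 0.147 between the CCR7hiCD137lo libraries and 0.185 between the CCR7loCD137hi libraries. Between populations it was 0.289 and 0.263 for libraries of the same number, 0.431 for CCR7hiCD137lo replicate 2 with CCR7loCD137hi replicate 1, and 0.184 for CCR7hiCD137lo replicate 1 with CCR7loCD137hi replicate 2. For the 50 genes, that last pair lay no further apart than the replicates of CCR7loCD137hi. Over all genes tested, the same measure was 0.19 between the CCR7hiCD137lo libraries and 0.239 between the CCR7loCD137hi libraries. Between populations it was 0.177 and 0.185 for libraries numbered 1 and 2. For the pairs of unlike number it was 0.228 and 0.287, in the order given above.

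**Figure D4:**
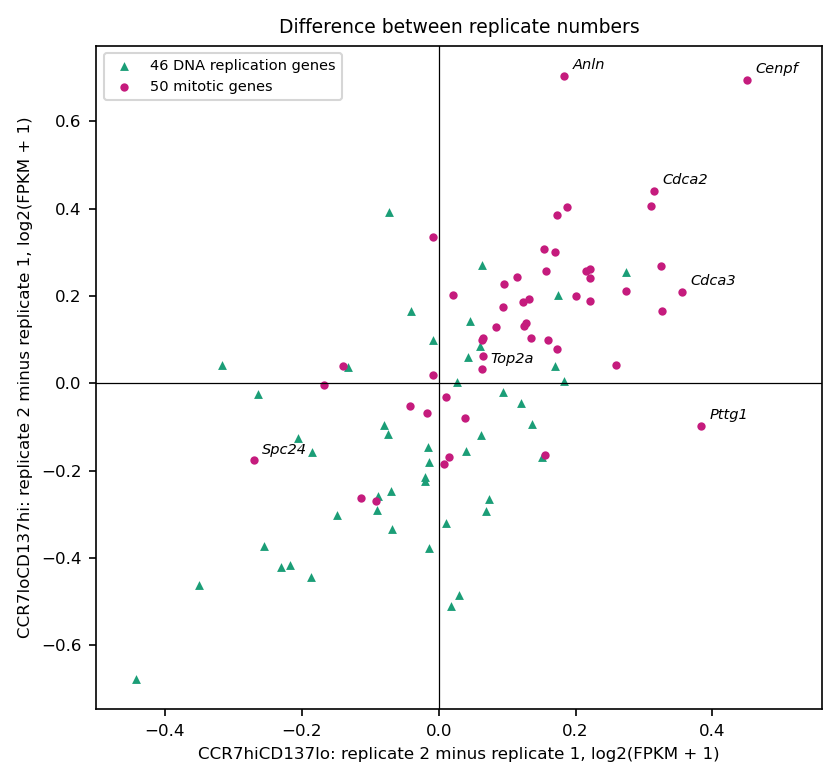
Log2 difference of replicate 2 from replicate 1 (log2(FPKM + 1) scale) within CCR7hiCD137lo (horizontal axis) and within CCR7loCD137hi (vertical axis), for the 50 mitotic genes and the 46 DNA replication genes. Of the mitotic genes 35 lie at the upper right, above 0 on both axes, and of the DNA replication genes 9 do.

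Each library was also left out in turn. The median log2 difference of the 50 genes was -0.33 without CCR7hiCD137lo replicate 1 and -0.19 without CCR7hiCD137lo replicate 2. It was -0.35 without CCR7loCD137hi replicate 2, the library with the highest summed myeloid and erythroid markers. CCR7loCD137hi replicate 1 was the library with the highest summed B cell and CD8 T and NK cell markers. Without it the median log2 difference of the 50 genes was -0.19, with 42 of 50 below 0. With a single CCR7loCD137hi library left, 38 of 50 lay below both CCR7hiCD137lo libraries, against 39.6% of all genes in that fit. In it 8 genes stood above 0, Anln (0.35), Bub1 (0.08), Cdca2 (0.07), Kifc1 (0.05), Cdca3 (0.05), Cenpe (0.02), Cenpa (0.02) and Ckap2 (0.0055). Without CCR7hiCD137lo replicate 2 the 5 genes above 0 were Pttg1 (0.19), Cdca3 (0.12), Anln (0.09), Cenpa (0.05) and Cdca2 (0.0081), without CCR7loCD137hi replicate 2 they were Pttg1 (0.05) and Cdc20 (0.01), and without CCR7hiCD137lo replicate 1 there were none. The other 40 genes stayed below 0 in all 4 of these fits.

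The size of the difference depended on single libraries for many of the genes. For 29 of the 50, leaving out at least 1 library moved the fitted difference by over 1.5 times or across 0, and for 21 it did not. Top2a, Spc25, Kif11, Smc4, Smc2, Ncapd2, Mad2l1, Tpx2, Nusap1, Plk1, Incenp, Kif22, Espl1 and Ube2c were among the 21. Birc5 stood at -0.35 without CCR7loCD137hi replicate 1 and at -0.08 without CCR7loCD137hi replicate 2, and Bub3 at -0.09 without the latter. Mki67 was at -0.13 without CCR7loCD137hi replicate 1, -0.39 without CCR7loCD137hi replicate 2 and -0.15 without CCR7hiCD137lo replicate 2. Aurkb was at -0.16 without CCR7loCD137hi replicate 1, -0.40 without CCR7hiCD137lo replicate 1 and -0.13 without CCR7hiCD137lo replicate 2. These genes stayed below 0 throughout, while the sizes printed for them with all libraries rest on few values. Without CCR7loCD137hi replicate 1, Prc1 was at -0.19, Ect2 at -0.11 and Aurka at -0.07, and without CCR7hiCD137lo replicate 2 Prc1 was at -0.20 and Aurka at -0.02. Ect2 was at -0.35 without CCR7loCD137hi replicate 2, and Aurka at -0.19 without CCR7hiCD137lo replicate 1. Spc24 was at -0.13 without CCR7hiCD137lo replicate 1, -0.40 without CCR7hiCD137lo replicate 2 and -0.17 without CCR7loCD137hi replicate 2.

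The set was then placed beside other cell cycle genes, from lists by function. Of 102 other mitotic genes, 97 were found and tested. Their median log2 difference was -0.20, and -0.13 without CCR7loCD137hi replicate 1. Of the 97, 86 were below 0 (88.7%), against 52.1% of all genes. Without overlap 49 were lower (50.5%), against 21.5% of all genes. At an unadjusted p of 0.05 in limma 13 were lower (13.4%), against 3.49% of all genes, and 0 were higher, against 4.64%. At the adjusted threshold 0 were called. Cdk1, the kinase that starts mitosis, stood at 70.0 and 71.3 FPKM in CCR7hiCD137lo and 63.3 and 64.3 FPKM in CCR7loCD137hi, and its cyclin Ccnb1 at 64.1 and 58.1 against 54.1 and 48.9 FPKM. Both were separated, with log2 differences of -0.14 and -0.24. Among the transcription factors of this program, Foxm1 was at 45.2 and 47.6 against 33.6 and 37.4 FPKM, with a log2 difference of -0.38 (unadjusted p 0.0347, adjusted p 0.584). Mybl2, which encodes B-MYB, was at 19.4 and 18 against 21.2 and 18.8 FPKM, overlapping, with a log2 difference of 0.09 (adjusted p 0.892). Stmn1, a microtubule destabiliser and the most abundant of these genes, was at 392 and 392 against 256 and 293 FPKM (log2 difference -0.52). Casc5, a kinetochore scaffold, had the lowest log2 difference, -0.57, at 12.8 and 16 against 8.93 and 9.78 FPKM, while Ube2s, another enzyme of the anaphase promoting complex, was at 151 and 148 against 173 and 148 FPKM (log2 difference 0.09).

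The 46 DNA replication genes, which act in the preceding S phase, had a median log2 difference of -0.19. Of them 38 were below 0 (82.6%), against 52.1% of all tested genes. Without overlap 23 were lower (50%), against 21.5% of all genes, and 2 were higher (Cdt1 and Orc1), against 16.6%. At an unadjusted p of 0.05 in limma 2 were lower (Rrm1 and Pola1, 4.35%), near the 3.49% of all genes. At the adjusted threshold 0 were called. The median was -0.10 without CCR7loCD137hi replicate 2 and -0.12 without CCR7hiCD137lo replicate 1. Pcna, the sliding clamp, stood at 415 and 396 FPKM in CCR7hiCD137lo and 399 and 336 FPKM in CCR7loCD137hi, and Rrm2, a subunit of ribonucleotide reductase, at 181 and 189.6 against 172 and 140.5 FPKM. Pcna overlapped and Rrm2 did not, with log2 differences of -0.15 and -0.25. Tyms, which makes thymidylate, had the largest difference at -0.54, but with overlap, at 23.0 and 16.6 against 16.8 and 10.2 FPKM. These genes did not share the direction between replicates seen for the mitotic genes, since 9 of 46 were higher and 21 lower in replicate 2 in both populations. Of all 10496 genes tested, 4690 (44.7%) were higher and 3091 lower in replicate 2 in both.

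Genes that hold the cell cycle back had a median log2 difference of 0.17 over 16 tested of 17, with a range from -0.60 to 1.92. The median was 0.07 without CCR7hiCD137lo replicate 1 and 0.29 without CCR7hiCD137lo replicate 2. Of the 16, 11 were above 0, against 47.9% of all genes, and 5 were below 0. Without overlap 5 were higher, against 16.6% of all genes, and 3 were lower (18.8%), near the 21.5% of all genes. At an unadjusted p of 0.05 in limma 5 were higher (Cdkn1a, Cdkn2a, Cdkn2b, Btg2 and Tob1), against 4.64% of all genes. At that p 1 was lower (Rbl1), against 3.49%, and 0 were called at the adjusted threshold. Cdkn1a, which encodes the inhibitor p21, stood at 39.1 and 84.1 FPKM in CCR7hiCD137lo and 143 and 189 FPKM in CCR7loCD137hi. The populations were separated although the replicates spread widely, with a log2 difference of 1.5 (SE 0.399, adjusted p 0.501). Cdkn2a, whose locus encodes 2 unlike proteins that this gene value cannot separate, was at 2.67 and 2.01 against 16 and 8.28 FPKM (log2 difference 1.92, SE 0.336, adjusted p 0.346). E2f4, a repressor of the E2F family, was at 80.0 and 83.5 against 88.1 and 79.0 FPKM, overlapping, with a log2 difference of 0.03.

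**Figure D5:**
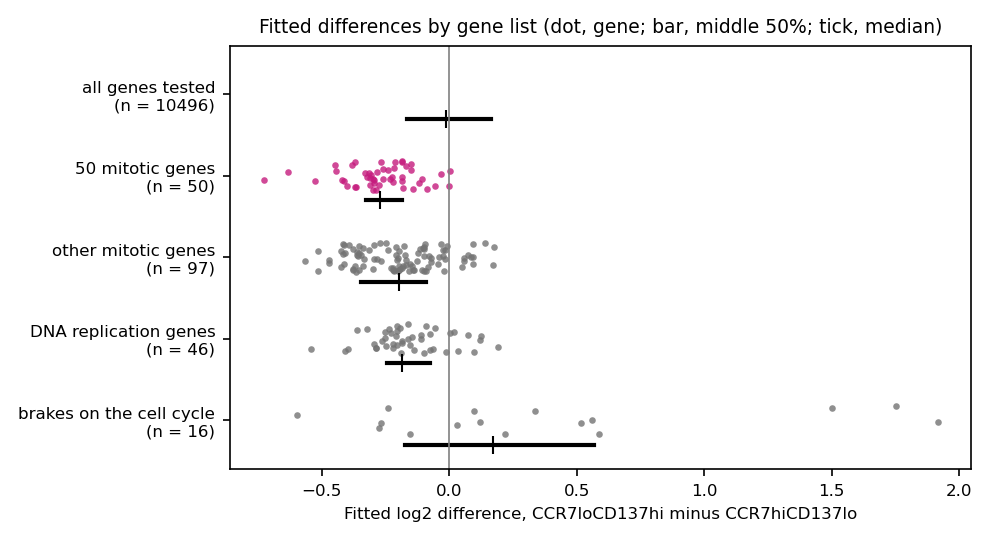
Fitted log2 differences (CCR7loCD137hi minus CCR7hiCD137lo, log2(FPKM + 1) scale, horizontal axis) by gene list, with 1 dot per gene, a bar over the middle 50% and a tick at the median, for all 10496 tested genes (bar and tick alone), the 50 mitotic genes, 97 other mitotic genes, 46 DNA replication genes and 16 genes that hold the cycle back. The medians are -0.01, -0.27, -0.20, -0.19 and 0.17.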

How the data were processed

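RNA was measured in 4 libraries, 2 of each population. Per the labels' protocols, TRIzol was the extraction reagent and a TruSeq Stranded mRNA kit made the libraries. The values are FPKM, which the authors deposited in 1 table for each library, and which per the file headers have the columns of a Cufflinks gene table. Per the submitters' processing notes, the build was mm10 and the tools were TopHat 1.3.2, Bowtie 0.12.8 and Cufflinks 2.0.2. For their roles, the annotation, any scaling between libraries and the use of strand, a statement was not given in the sources used here. Where strand was not used, fragments of a gene and of its antisense neighbour cannot be told apart.

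Each table had 23746 entries for 23284 symbols, and a repeated symbol was represented by its entry of highest mean. No symbol of the 50 genes was repeated. File coordinates are printed with the start raised by 1. Genes with a mean of at least 1 FPKM were tested on log2(FPKM + 1), a pseudocount of 1, which understates differences of low genes. The test was limma 3.58.1 in R 4.3.3 with a variance trend, two-sided, Benjamini-Hochberg adjusted over all genes, with a threshold of 0.05, 2 residual and 2.54 prior degrees of freedom. With 2 libraries on each side, the smallest two-sided p of an exact permutation test is 0.333. The code was tested on simulated data. Tables and plots used Python 3.11.15 with pandas 2.3.3, numpy 2.4.6 and matplotlib 3.10.9.

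Depth was estimated from ratios of values under 0.3 FPKM and from genes of a single exon, taking fragments as 200 nt long, so it is approximate, and the errors given from it cover counting alone. Promoters came from RefSeq on GRCm38.p6, exon overlaps and near-identical stretches from GENCODE annotation on mm10.

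The members, roles and other lists were chosen with earlier results of these data known. Values in every library were given for the 2 most abundant genes of each role and the gene with the largest absolute log2 difference, and other genes were chosen after their values were seen. Other lists followed the same rule, with Cdk1, Ccnb1, Foxm1 and Mybl2 added. Alternatives covered the pseudocount, the filter, 3 scalings, the variance trend, a replicate block and leaving out each library.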

Additional observations from a re-analysis of the deposited data

How the results depend on the processing

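Under all 13 alternatives 40 of the 50 genes kept a fitted difference below 0, and 48 did under the 9 that keep every library. None of the 50 passed the adjusted threshold of limma under any of them. The genes called over all genes, 1 lower and 5 higher, became 2 lower with a pseudocount of 0.1, 0 lower and 1 higher with no filter on low values, 0 and 2 with quantile normalization, 0 and 3 when rescaled without short RNA genes, and 0 and 2 with no variance trend. Leaving out single libraries gave 6 to 13 lower and 10 to 27 higher. The count of the 50 genes lower at an unadjusted p of 0.05, 11, became 18 without short RNA genes (5.49% of all genes) and 7 with no variance trend (3.26%), and 1 to 8 without single libraries (1 to 3.39%), where 0 to 2 genes were higher without overlap. The median log2 difference of the 50 genes, -0.27, became -0.33 without short RNA genes, -0.25 with median-ratio scaling and -0.35 to -0.19 without single libraries. Over all genes tested the median, -0.01, became -0.06 without short RNA genes and 0.01 with median-ratio scaling. In the libraries numbered 1 the median of the 50 genes, -0.29, became -0.37 without short RNA genes. With median-ratio scaling the median in those numbered 2, -0.26, became -0.21, the median of replicate 2 minus replicate 1 in CCR7hiCD137lo, 0.13, became 0.064, and Pttg1 turned to 0.025. Without single libraries Pttg1 ran from -0.19 to 0.19, Cenpa from -0.11 to 0.046, Cdca3 from -0.23 to 0.12 and Cdca2 from -0.37 to 0.071, and of the other 6 genes that did not stay below 0, Anln from -0.35 to 0.35, Bub1 from -0.26 to 0.08, Kifc1 from -0.35 to 0.05, Cenpe from -0.39 to 0.02, Ckap2 from -0.29 to 0.0055 and Cdc20 from -0.25 to 0.01. The causes of these shifts were not tested. The labels do not say that a replicate number marks a shared culture or day. Deviations of same-numbered libraries correlated at 0.214 across 10496 genes, which are not independent, and only 2 pairs exist. With the replicate block 6 genes were called lower and 36 higher over all genes, and 29 of the 50 genes were lower at an unadjusted p of 0.05, where 9.71% of all genes were. The smallest adjusted p among the 50 was then 0.0697 (Top2a), against 0.296 without the block. Depth limits the least abundant genes most, and CCR7loCD137hi replicate 2 was the shallowest library.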

Other observations

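Genes of cohesin and of the anaphase promoting complex, which were listed together, stood apart in their values when they were split after the values were seen, so no test was made. Cohesin is the ring that holds sister chromatids together until separase cuts it. All 10 of its listed subunits and regulators were fitted below 0, against 52.1% of all tested genes. Cohesin had a median log2 difference of -0.25, with 8 genes lower in CCR7loCD137hi without overlap, against 21.5% of all genes. Its acetyltransferase Esco2 measured 27.5 and 29.5 FPKM in replicates 1 and 2 of CCR7hiCD137lo and 19.1 and 20.1 FPKM in those of CCR7loCD137hi, with a log2 difference of -0.52 (SE 0.124, adjusted p 0.464 in limma). Pds5a, which binds the ring, was at 53.6 and 57.9 against 42.6 and 40.0 FPKM, and the subunit Stag2 was at 32.6 and 37.3 against 25.2 and 26.8 FPKM. These 3 were the cohesin genes lower at an unadjusted p of 0.05 in limma, where 3.49% of all genes were. Each was separated between the populations.

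The 12 subunits of the anaphase promoting complex, the ubiquitin ligase that Cdc20 activates, had a median log2 difference of -0.04. Of them 9 were below 0, against 52.1% of all tested genes. In the libraries numbered 1 their median was 0.02, with 5 of the 12 lower in CCR7loCD137hi. In those numbered 2 it was -0.09, with 10 lower. The number lower in both was 4, against 35.9% of all genes. Lower without overlap were 3 of the 12, a share near the 21.5% of all genes. Anapc5 stood at 119 and 109.8 FPKM in CCR7hiCD137lo and 112 and 101 FPKM in CCR7loCD137hi, overlapping, and Cdc26 was at 42.1 and 41.9 against 41.1 and 41.0 FPKM. Neither list was compared with the other by a test, and neither holds a gene past limma's adjusted threshold.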
